A study of Canis lupus familiaris with 8 samples.

Results

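Proteasome genes were followed in the left ventricle of dogs with alloxan-induced type 1 diabetes (DM dogs) and of control dogs. The members are the probe sets of the Affymetrix Canine Genome Array whose annotation gives a single gene symbol that starts with PSM, a letter from A to G and a digit, with PSMC3IP left out by name. This rule found 60 of the 23836 probe sets that are not controls of the manufacturer, and these stand for 38 of the 6540 gene symbols that are named alone. One of the 38, PSME3IP1, encodes a nuclear protein that binds an activator of the proteasome and is not a subunit, so 58 probe sets of 37 genes are subunits, activators, inhibitors or assembly factors. The symbols alone chose the members, and no measured value entered the rule. The rule was set with earlier results of these data known.

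The DM group holds the dogs 0292, 0294, 1087 and 1111, and the control group the dogs D5, D6, D7 and D8. All were male mongrel dogs of 23 to 27 kg according to the labels, and all had been instrumented by surgery beforehand. Alloxan, which destroys the insulin-producing cells of the pancreas, was injected into the DM dogs at 40 to 60 mg/kg, some were injected again, and dogs entered the group if fasting glucose exceeded 200 mg/dl on day 7. Their hearts were taken 4 weeks after alloxan, and control dogs had no alloxan. RNA came from ventricular tissue and not from isolated cells, with 1 array per dog and 4 dogs per group.

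The proteasome degrades proteins that carry a chain of ubiquitin. Its core particle is a barrel of outer alpha rings, encoded by PSMA genes, which gate the entry, and inner beta rings, encoded by PSMB genes, some of which cut the protein. The regulatory particle sits on the barrel with a base of ATPases (PSMC), which unfold the substrate, and a lid, which removes ubiquitin from it. PSMD genes encode the lid and the rest of the base, where ubiquitin is bound. Activators (PSME) can take the place of the regulatory particle, and interferon exchanges some beta subunits for inducible ones, which form the immunoproteasome. In heart muscle the proteasome takes part in the turnover of contractile proteins.

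Values are log2 signals after quantile normalization, with an offset of 16 added to the MAS5 signal before the logarithm. They follow the order 0292, 0294, 1087 and 1111 in DM dogs, and D5, D6, D7 and D8 in control dogs. A difference is DM minus control on this scale, and it understates the change of weak signals. Signals of different probe sets are not read as relative amounts of their transcripts, since each probe set has its own affinity. They are ranked to pick the brightest probe set of a gene and to group probe sets by signal. They are also added up in the marker sums. Of all single values, over every probe set and dog, 50% lay below 7.47 log2 and 10% below 4.96. Detection calls were not used here, so values near the lower figure are not shown to lie above background.

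More proteasome probe sets were lower than higher in DM dogs, 39 against 21, while over all probe sets 48.1% were lower and 51.9% higher. The median difference of the 60 was -0.60, and that of all probe sets was 0.06. At an unadjusted p under 0.05 from limma, 9 of the 60 were lower, or 15%, where 8.91% of all probe sets were, and 4 were higher, or 6.67%, where the background was 7.80%. In 9 of the 60 every DM dog lay below every control dog (background 5.87%), and in 1 every DM dog lay above (background 4.93%). After Benjamini-Hochberg adjustment over all 23836 probe sets 0 of the 60 passed with limma, and the adjusted p ran from 0.127 to 0.997. Over the whole array 0.0168% passed in the lower direction and 0% in the higher one. The methods' t-test, with its limits of 0.01 for P and 2-fold for the change, gave 3 lower probe sets (background 2.52%) and 1 higher one (background 2.45%), and 0 of the 60 passed it after adjustment (background 0.0503% lower and 0.042% higher). The 4 are both probe sets of PSMB5, PSMG3 and a probe set of PSME4. With 1 probe set per gene, the brightest, 26 of the 38 genes were lower and 12 higher.

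**Figure D1:**
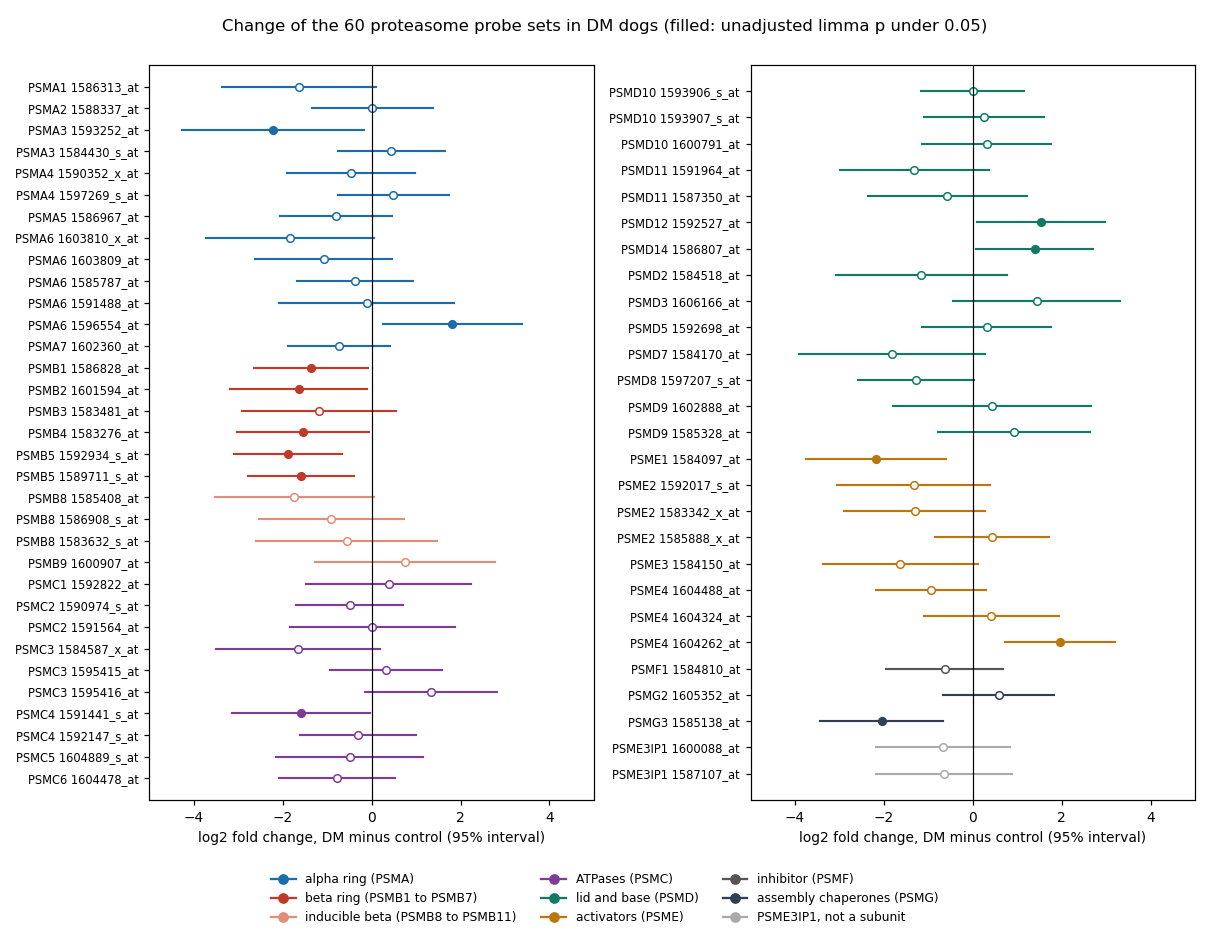
Difference between DM and control dogs for all 60 probe sets, by class (log2, x axis), with the 95% interval from limma (n = 4 dogs per group). Filled points have an unadjusted p under 0.05, which holds for 9 lower and 4 higher probe sets, and all 6 of the beta ring lie left of 0.

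Several measures of the arrays differed between the groups, not all beyond the spread of the dogs. Each array was correlated with the others of its group. The mean r was 0.55 to 0.65 in DM dogs and 0.77 to 0.86 in control dogs, without overlap. The hybridization controls, bacterial and phage transcripts added in fixed amounts, had a mean of 15.17 to 17.72 log2 on the deposited scale in DM dogs and 13.09 to 15.77 in control dogs (exact permutation test, two-sided p = 0.0571), with 15.77 in D8 and at most 13.36 in the other control dogs. Cardiomyocyte markers were lower in DM dogs in 11 of 11 measured genes, and their summed signal was 128780 to 231160 in DM dogs and 299640 to 717040 in control dogs. Macrophage and monocyte markers, each by its brightest probe set, were higher in 8 of 10. Of these, 2 had an unadjusted p under 0.05, where 8.21% of all genes were higher by the same rule. The summed signal of the list was 20426 to 95266 in DM dogs and 5164 to 11190 in control dogs. LYZ, which encodes lysozyme, had a difference of 3.53 in this list, and without it the sums overlapped, with 3069 to 12155 in DM dogs and 2468 to 6007 in control dogs. The log2 signal of the 3′ probe set minus that of the 5′ one for GAPDH, a measure of RNA integrity, was 0.60 to 3.08 in DM dogs and 3.57 to 5.96 in control dogs after quantile normalization (exact permutation test, two-sided p = 0.0286). On the deposited scale it overlapped, with 0.37 to 3.90 in DM dogs and 2.17 to 6.08 in control dogs (p = 0.171 by the exact test). For actin it was 3.58 to 7.33 in DM dogs and 1.56 to 6.61 in control dogs after normalization (p = 0.171 by the exact test). In RNA of whole tissue, fewer cells of a type and less RNA per cell cannot be told apart. The part of these array, RNA and marker differences in the proteasome values was not tested.

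The measured genes of the beta ring were lower throughout. All 6 probe sets of this class, for PSMB1, PSMB2, PSMB3, PSMB4 and PSMB5, were lower in DM dogs, with differences of -1.88 to -1.18 and a median of -1.57. PSMB6 and PSMB7 had no member probe set, so the ring was not covered in full. Of the 6 probe sets, 5 had an unadjusted p under 0.05, where the background is 8.91%, and in 3 every DM dog lay below every control dog, where the background is 5.87%. PSMB5 encodes the catalytic subunit with chymotrypsin-like activity. Its probe set 1592934_s_at had 11.09, 11.10, 10.26 and 11.43 log2 in DM dogs, against 13.16, 13.08, 12.76 and 12.41 in control dogs. Every DM dog lay below every control dog, and the difference was -1.88 (SE 0.56, 95% interval -3.09 to -0.67, adjusted p = 0.132 from limma). The other probe set of PSMB5, 1589711_s_at, had 10.39, 10.13, 10.18 and 10.83 log2 in DM dogs, against 12.16, 12.28, 12.08 and 11.37 in control dogs. Its groups did not overlap either, with a difference of -1.59 (SE 0.55, adjusted p = 0.180). On the deposited scale the first of these probe sets had a signal of 1024 to 3188 in DM dogs and 5474 to 8839 in control dogs. Both kept an unadjusted p under 0.05 in all 17 alternatives, with differences of -4.44 to -1.41.

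PSMB2, a structural subunit of the beta ring, had 5.74, 8.40, 8.22 and 8.94 log2 in DM dogs, against 9.43, 9.49, 9.51 and 9.45 in control dogs. The control dogs lay within a narrow band (SD 0.04) and all DM dogs below it, with 0292 far below the rest. The difference was -1.65 (SE 0.71, adjusted p = 0.266), and -1.06 without 0292. PSMB4, another structural beta subunit, had 10.19, 9.66, 8.79 and 9.54 log2 in DM dogs, against 11.60, 12, 11.40 and 9.33 in control dogs. Here control dog D8 lay among the DM dogs, and the difference of -1.54 (SE 0.69, adjusted p = 0.284) was -2.11 without D8. PSMB1 had 8.16, 8.19, 7.82 and 8.63 log2 in DM dogs, against 10.01, 10.17, 9.61 and 8.49 in control dogs. D8 again lay within the range of the DM dogs, and the difference was -1.37 (SE 0.59, adjusted p = 0.267). PSMB3 had 6.00, 9.45, 5.85 and 8.09 log2 in DM dogs, against 8.79, 8.85, 8.76 and 7.72 in control dogs. DM dog 0294 had the highest value of all 8 dogs, so the groups overlapped (difference -1.18, SE 0.81, adjusted p = 0.489). The difference was -1.88 without 0294, -0.70 without 0292 and -0.68 without 1087.

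The beta ring was lower in all 6 probe sets under each alternative that was fitted on probe sets, while the number at an unadjusted p under 0.05 varied. It was 2 without D5, without D6 or without D7, with cyclic loess and without offset, 3 without DM dog 1087 and 3 with the methods' t-test. It was 6 under scaling by hybridization controls, where 45.2% of all probe sets were lower at that threshold, and 4 or 5 under the others. Apart from that scaling, the share of all probe sets ran from 5.71% without D6 to 13.3% with median centring or with dim probe sets left out.

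**Figure D2:**
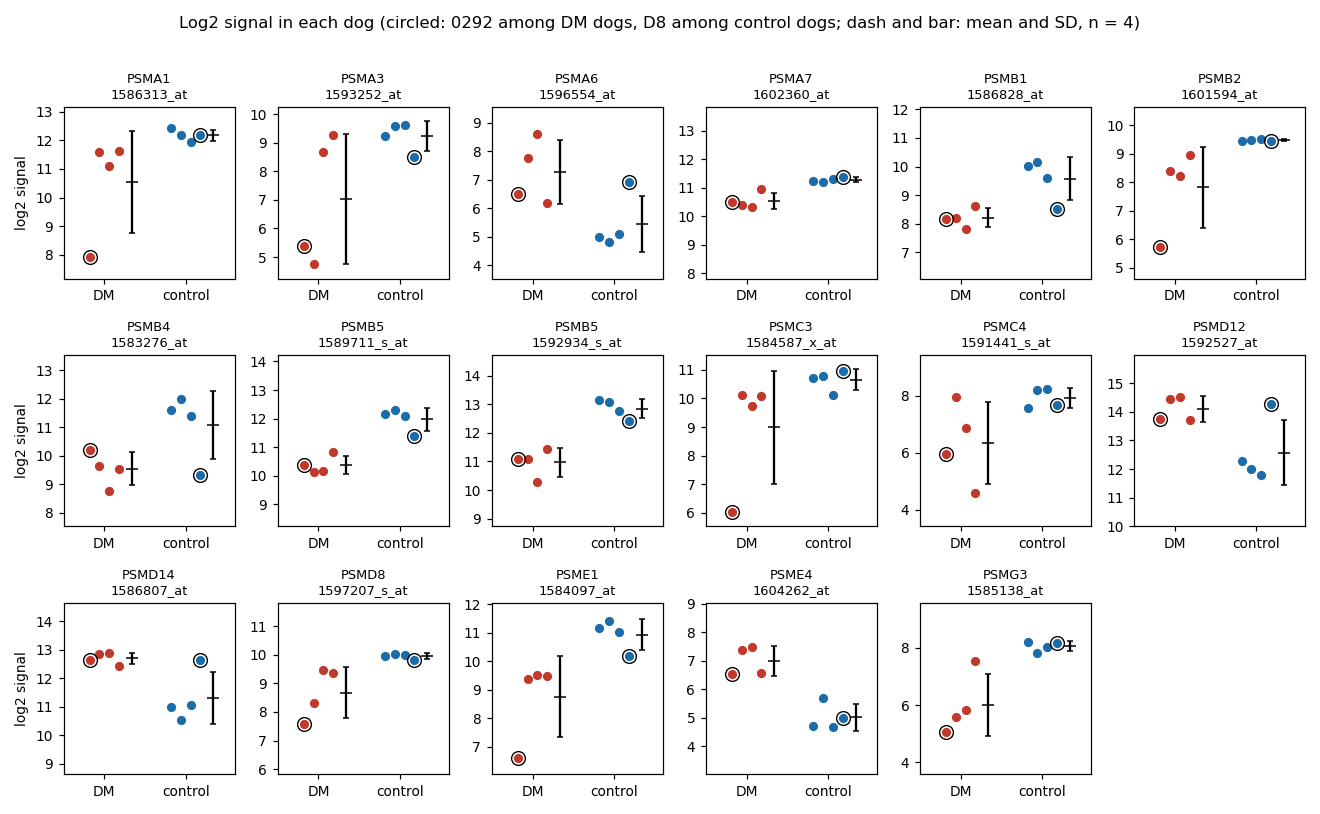
Log2 signal of each dog for the 17 proteasome probe sets with an unadjusted p under 0.05 or without overlap between the groups, DM dogs in red and control dogs in blue. Black circles mark DM dog 0292 and control dog D8. The dash and bar are the mean and SD of 4 dogs. In PSMB1, PSMB4, PSMD12, PSMD14 and the shown probe set of PSMA6, D8 is the single control dog within the range of the DM dogs. In the shown probe sets of PSMA3 and PSMC4, D8 lies within that range together with D5.

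Inducible beta subunits were lower in 3 of 4 probe sets, with a median of -0.74. PSMB8, which replaces PSMB5 in the immunoproteasome, was measured by 3 probe sets with differences of -0.57, -1.74 and -0.91, none at an unadjusted p under 0.05. The lowest, 1585408_at, had 4.80, 5.43, 7.59 and 8.85 log2 in DM dogs, against 8.77, 8.14, 8.56 and 8.16 in control dogs. DM dog 1111 lay above all control dogs and the other DM dogs below them (adjusted p = 0.312), and the difference was -1.09 without 0292. PSMB9, which replaces another catalytic subunit, had 9.02, 8.60, 9.61 and 9.16 log2 in DM dogs, against 9.15, 9.17, 10.06 and 5.01 in control dogs. Its difference was 0.75 (SE 0.94, adjusted p = 0.727), and without D8 it was -0.37. Markers of T cells and other leukocytes, which carry the immunoproteasome, were measured for 5 of 11 listed genes, with a summed signal of 349 to 879 in DM dogs and 384 to 580 in control dogs. The difference between the beta ring and the inducible subunits was not tested.

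In the alpha ring 9 of 13 probe sets were lower and 4 higher, with a median of -0.47. At an unadjusted p under 0.05, 1 was lower and 1 higher, where 8.91% and 7.8% of all probe sets were. PSMA7 had 10.48, 10.38, 10.34 and 10.95 log2 in DM dogs, against 11.25, 11.19, 11.30 and 11.37 in control dogs. All DM dogs lay below the control dogs, and the step was small beside those of the beta ring (-0.74, SE 0.53, adjusted p = 0.514). PSMA1 had 7.90, 11.59, 11.11 and 11.62 log2 in DM dogs, against 12.42, 12.19, 11.95 and 12.20 in control dogs. The groups did not overlap, but 0292 held most of the distance, and the difference of -1.63 (SE 0.80, adjusted p = 0.326) was -0.77 without that dog. PSMA2 had a difference of 0.02 and PSMA5 one of -0.80.

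PSMA3 and PSMA6 gave opposite directions by probe set. For PSMA3, 1593252_at had 5.37, 4.77, 8.68 and 9.26 log2 in DM dogs, against 9.25, 9.58, 9.61 and 8.51 in control dogs. The DM dogs split into a low and a high pair (difference -2.22, SE 0.95, adjusted p = 0.259). The other probe set of the same gene, 1584430_s_at, had 12.98, 13.37, 13.24 and 12.96 log2 in DM dogs, against 12.61, 12.43, 12.22 and 13.51 in control dogs. Here D8 had the highest value of all dogs (difference 0.44, SE 0.56, adjusted p = 0.729). For PSMA6, 4 of 5 probe sets were lower, with differences of -1.84 to -0.11, and 1596554_at was higher. It had 6.51, 7.76, 8.59 and 6.19 log2 in DM dogs, against 4.98, 4.82, 5.10 and 6.91 in control dogs. D8 lay among the DM dogs, the other control dogs were near the 4.96 log2 below which 10% of the signals lay, and the difference was 1.81 (SE 0.72, adjusted p = 0.235).

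Among the ATPases 6 of 10 probe sets were lower, with a median of -0.40. Of the 10, 6 had a mean signal over the 8 dogs below 7.07 log2, the median of such means over all probe sets. PSMC4 was lower by the probe set 1591441_s_at, which had 5.94, 7.95, 6.85 and 4.57 log2 in DM dogs, against 7.56, 8.18, 8.24 and 7.67 in control dogs. DM dog 0294 lay among the control dogs and 1111 was lowest (difference -1.59, SE 0.72, adjusted p = 0.290). The difference was -1.0 without 1111, and the unadjusted p was no longer under 0.05 in 11 of 17 alternatives. The probe set 1584587_x_at of PSMC3 had 6.02, 10.11, 9.75 and 10.09 log2 in DM dogs, against 10.73, 10.80, 10.13 and 10.96 in control dogs. The groups did not overlap, yet 0294 nearly reached D7, and the difference of -1.66 (SE 0.86, adjusted p = 0.353) was -0.72 without 0292. PSMC3 was higher by another probe set, 1595416_at, with 6.17, 7.78, 8.14 and 7.09 log2 in DM dogs, against 6.98, 5.38, 4.86 and 6.59 in control dogs (difference 1.34, adjusted p = 0.349). PSMC1, PSMC2, PSMC5 and PSMC6 had differences of -0.78 to 0.38.

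Lid genes went both ways, and the class as a whole was nearly balanced, with 6 of 14 PSMD probe sets lower and 8 higher and a median of 0.28. PSMD14 encodes the enzyme of the lid that cuts the ubiquitin chain off the substrate. It had 12.63, 12.83, 12.88 and 12.43 log2 in DM dogs, against 10.99, 10.52, 11.06 and 12.65 in control dogs. PSMD12, a scaffold of the lid, had 13.74, 14.45, 14.53 and 13.71 log2 in DM dogs, against 12.27, 11.99, 11.79 and 14.26 in control dogs. In both genes D5, D6 and D7 lay below all DM dogs, and D8 lay among the DM dogs. The differences were 1.39 (SE 0.61, adjusted p = 0.278) and 1.53 (SE 0.67, adjusted p = 0.271), and 1.82 and 2.06 without D8. Scaling each array by its hybridization controls turned them to -1.28 and -0.97, and that scaling moved the median over the array to -1.65. With median centring the differences were 0.50 for PSMD14 and 0.81 for PSMD12. The unadjusted p was no longer under 0.05 in 9 of 17 alternatives for PSMD14 and in 10 for PSMD12.

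Other lid genes had lower values. PSMD8 had 7.59, 8.31, 9.47 and 9.36 log2 in DM dogs, against 9.96, 10.04, 10.01 and 9.81 in control dogs. The groups did not overlap (difference -1.28, SE 0.61, adjusted p = 0.311). PSMD7, the partner of PSMD14 in the lid, had 6.41, 5.99, 7.95 and 9.51 log2 in DM dogs, against 10.16, 10.47, 9.96 and 6.57 in control dogs. D8 stood with the low DM dogs here too, and the difference was -1.82 (SE 0.97, adjusted p = 0.369) with all dogs and -2.74 without D8. Of 7 probe sets for lid subunits, 4 were lower and 3 higher. Of 6 probe sets for PSMD5, PSMD9 and PSMD10, which help to assemble the base and do not stay in it, 5 had positive differences and 1 a negative one, none at an unadjusted p under 0.05. PSMD2, a scaffold of the base, had a difference of -1.16 (SE 0.89), with 7.14 log2 in D8 and 9.60 to 10.08 in the other control dogs.

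Activators were lower in 5 of 8 probe sets and higher in 3, with a median of -1.12. PSME1 encodes the alpha subunit of the interferon-inducible activator PA28. It had 6.62, 9.38, 9.53 and 9.50 log2 in DM dogs, against 11.16, 11.40, 11.01 and 10.17 in control dogs. All DM dogs lay below all control dogs, with 0292 lowest by a wide margin. The difference was -2.18 (SE 0.73, 95% interval -3.76 to -0.60, adjusted p = 0.168), and -1.59 without 0292. It kept an unadjusted p under 0.05 in all 17 alternatives. PSME2, which encodes the beta subunit of the same activator, had differences of -1.31, 0.43 and -1.33 in its 3 probe sets, none at an unadjusted p under 0.05. PSME3, the nuclear activator, had a difference of -1.63 (SE 0.81, adjusted p = 0.329).

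PSME4 encodes PA200, an activator that takes in proteins without ubiquitin. Its probe set 1604262_at was the single member in which every DM dog lay above every control dog. It had 6.52, 7.36, 7.49 and 6.58 log2 in DM dogs, against 4.70, 5.70, 4.69 and 5.00 in control dogs. The difference was 1.97 (SE 0.57, 95% interval 0.73 to 3.2, adjusted p = 0.127). On the deposited scale this was a signal of 56.8 to 180 in DM dogs and 4.13 to 31.9 in control dogs, so the control values were among the weak ones of the array and the size depends on the offset (2.84 without offset and 1.12 with an offset of 64). It was 0.68 under scaling by hybridization controls, with an unadjusted p no longer under 0.05, and the groups overlapped there and with cyclic loess. Another probe set of PSME4, 1604488_at, had 12.79, 12.41, 13.08 and 13.48 log2 in DM dogs, against 14.11, 14.31, 13.94 and 13.18 in control dogs, a difference of -0.94 (SE 0.57, adjusted p = 0.430). A further probe set, 1604324_at, had 0.41. The direction for PSME4 thus differed between its probe sets.

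PSMG3 encodes a chaperone that assembles the alpha ring. It had 5.05, 5.58, 5.84 and 7.55 log2 in DM dogs, against 8.22, 7.83, 8.02 and 8.16 in control dogs. All control dogs lay above all DM dogs, and 1111 was the DM dog nearest to them. The difference was -2.05 (SE 0.64, 95% interval -3.44 to -0.67, adjusted p = 0.144), with an unadjusted p under 0.05 in all 17 alternatives. PSMG2, another such chaperone, had 11.39, 11.91, 11.36 and 11.64 log2 in DM dogs, against 10.70, 10.74, 10.56 and 11.99 in control dogs (difference 0.58, adjusted p = 0.647). D8 had the highest of the 8 values, and the difference was 0.91 without it. PSMF1, an inhibitor of the core particle in vitro, had 9.02, 9.16, 9.91 and 10.99 log2 in DM dogs, against 10.38, 10.45, 10.29 and 10.51 in control dogs (difference -0.64, adjusted p = 0.634, and -1.0 without 1111). PSME3IP1, which is not a subunit, had differences of -0.66 and -0.68 in its probe sets.

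Summed up by dog, the 60 probe sets had a median deviation from their own mean over the 8 dogs of -0.40, -0.24, -0.27 and 0.13 log2 in DM dogs, against 0.32, 0.38, 0.35 and 0.33 in control dogs. By this measure all DM dogs lay below all control dogs, and 1111 lay nearest to them. The plain median signal of the 60 in each dog overlapped between the groups. It was 7.78, 7.98, 8.18 and 8.64 log2 in DM dogs, against 8.75, 8.80, 8.78 and 8.20 in control dogs, with D8 below 1111. For the beta ring these medians were -0.81, -0.67, -1.30 and -0.31 in DM dogs, against 1.05, 1.13, 0.86 and -0.01 in control dogs. D8 stood between the DM dogs and the other control dogs in this class. For the PSMD class the medians were 0.02, 0.47, 0.19 and 0.02 in DM dogs, against -0.07, 0.11, 0.35 and -0.41 in control dogs, with no such order. Over all probe sets the same medians ran from -0.02 to 0.08 in DM dogs and from 0.01 to 0.07 in control dogs.

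**Figure D3:**
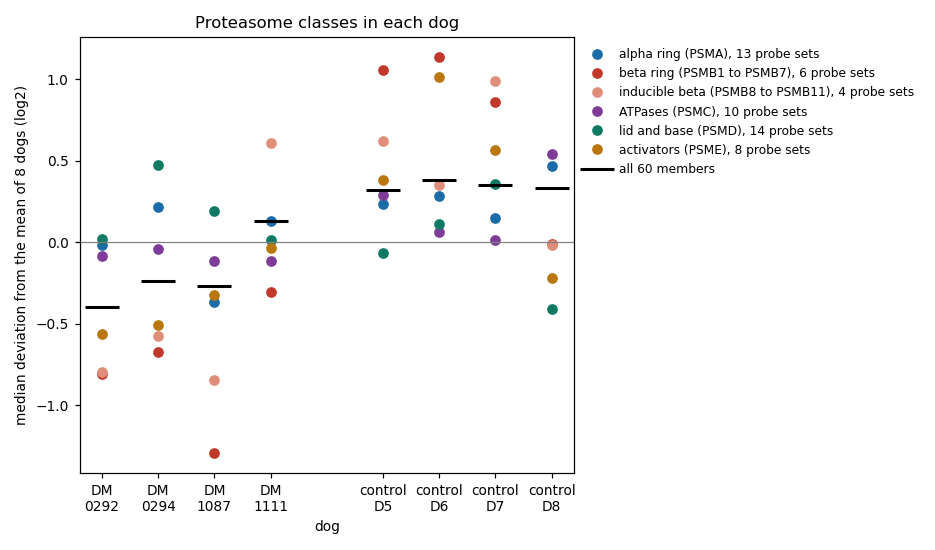
Median deviation of each proteasome class from its mean over the 8 dogs (log2, y axis), DM dogs on the left and control dogs on the right. Each coloured point is the median of 1 class in 1 dog and the black dash that of all 60 probe sets, which runs from -0.40 to 0.13 in DM dogs and from 0.32 to 0.38 in control dogs. The beta ring in red has 1.05, 1.13 and 0.86 in D5, D6 and D7 and -0.01 in D8.

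Spread between dogs was wider in the DM group. The SD over DM dogs was larger than over control dogs in 44 of the 60 probe sets, or 73.3%, and in 76.7% of all probe sets. The median SD of the 60 was 1.12 log2 in DM dogs and 0.51 in control dogs, and 0.24 among D5, D6 and D7. D8 was the control dog nearest to the DM mean in 41.7% of the members and 34.4% of all probe sets. Among the 13 members at an unadjusted p under 0.05, D8 was the single control dog within the range of the DM dogs in 5, which are probe sets of PSMA6, PSMB1, PSMB4, PSMD12 and PSMD14. Without D8 the groups were apart in 21 members, 15 lower and 6 higher, and over all probe sets in 11.7% lower and 9.24% higher.

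Of 14 genes with several probe sets, 6 had the same direction in all of them and 8 did not. The 6 are PSMB5, PSMB8, PSMC4, PSMD11 and PSME3IP1, which were lower, and PSMD9, which was higher. The 8 are PSMA3, PSMA4, PSMA6, PSMC2, PSMC3, PSMD10, PSME2 and PSME4. The widest spans were 3.65 log2 in PSMA6, 3.0 in PSMC3, 2.91 in PSME4 and 2.66 in PSMA3. Which transcript or part of a gene each probe set detects was not checked here.

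Signal strength and direction went together over the whole array. When all probe sets were ranked by their mean over the 8 dogs and cut into 5 bins of equal size, the median difference was 0.47 and 0.36 in the weakest bins and -0.07, -0.37 and -0.24 in the stronger ones. Of the 60 proteasome probe sets, 3 and 7 lay in the weakest bins and 10, 18 and 22 in the stronger ones. Within the bins, from weak to strong, the members had medians of 0.32, 0.38, -0.99, -0.73 and -0.69. In the strongest bin 14 of 22 members were lower, where 57.2% of all probe sets were.

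**Figure D4:**
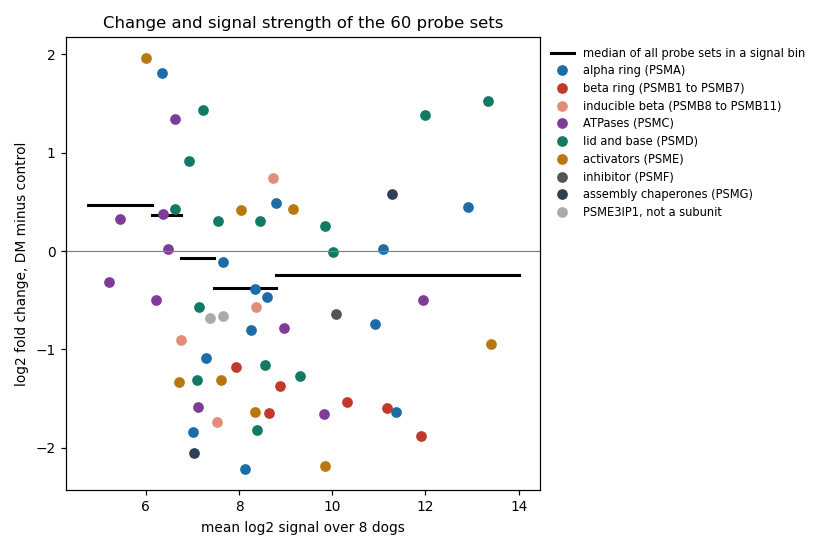
Difference between DM and control dogs (log2, y axis) against the mean log2 signal over the 8 dogs (x axis) for the 60 proteasome probe sets, coloured by class. Black bars are the medians of all probe sets in each bin of signal, from 0.47 in the weakest to -0.24 in the strongest, whose bar is drawn up to 14. All 6 beta ring points lie below these bars.

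Genes that act with the proteasome were counted in 5 lists, each gene by its brightest probe set. Among 9 measured of 11 partners that bind or build the proteasome, 8 were lower and 1 higher, with a median of -0.44, and 2 lower and 1 higher had an unadjusted p under 0.05, where 11.8% of all genes were lower and 8.21% higher by the same rule. ADRM1, a ubiquitin receptor of the base, had 5.70, 8.47, 6.10 and 8.58 log2 in DM dogs, against 9.28, 9.46, 9.18 and 9.17 in control dogs. All DM dogs lay below the control dogs (difference -2.06, SE 0.74, adjusted p = 0.191). UCHL5, the deubiquitinase that ADRM1 holds and activates, had 14.36, 15.44, 15.28 and 15.01 log2 in DM dogs, against 11.82, 11.11, 12.94 and 14.65 in control dogs. D8 again lay among the DM dogs (difference 2.39, SE 0.76, adjusted p = 0.147). The third, USP14, another deubiquitinase of the base, named because it completes this count, had a difference of -2.0 (SE 0.91, adjusted p = 0.291).

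Of 12 genes for substrate delivery and control of subunit genes 3 were measured, and none had an unadjusted p under 0.05. VCP, which pulls substrates out of complexes, had a difference of -0.77, and RAD23B, a shuttle for ubiquitinated proteins, one of 0.95. UBB, a polyubiquitin gene, had 11.44, 6.10, 9.32 and 10.91 log2 in DM dogs, against 13.17, 13.58, 13.38 and 11.34 in control dogs. D8 lay between the highest DM dogs (difference -3.43, SE 1.03, adjusted p = 0.132). RPS27A, which encodes ubiquitin fused to a ribosomal protein, had a difference of -0.03. These were 2 measured of 6 genes for ubiquitin and its activation, both with negative differences.

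Interferon and antigen processing genes, which are induced together with PSMB8, PSMB9, PSME1 and PSME2, were measured for 5 of 11, with 2 lower and 3 higher and a median of 0.10. TAP1, which carries peptides into the endoplasmic reticulum, had 5.02, 7.42, 4.84 and 4.83 log2 in DM dogs, against 8.09, 7.56, 7.95 and 7.39 in control dogs. DM dog 0294 and D8 met at the border (difference -2.22, SE 0.68, adjusted p = 0.139). B2M, the light chain of the complex that presents these peptides, had a difference of 1.02 (SE 0.58, adjusted p = 0.399). Of 4 muscle ubiquitin ligases 2 were measured, FBXO32 with a difference of -0.06 and FBXO40 with one of 1.18, neither at an unadjusted p under 0.05.

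The balance of lower and higher members moved with the scaling of the arrays. When the hybridization controls set the scale, 58 of the 60 were lower, and 35, or 58.3%, had an adjusted p under 0.05 from limma, while 32.2% of all probe sets were lower at that threshold and their median was -1.65. With median centring 46 were lower, without quantile normalization 38, and with cyclic loess 40. The median of the 60 stayed below that of all probe sets in each alternative, by 0.42 to 1.01 log2.

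**Figure D5:**
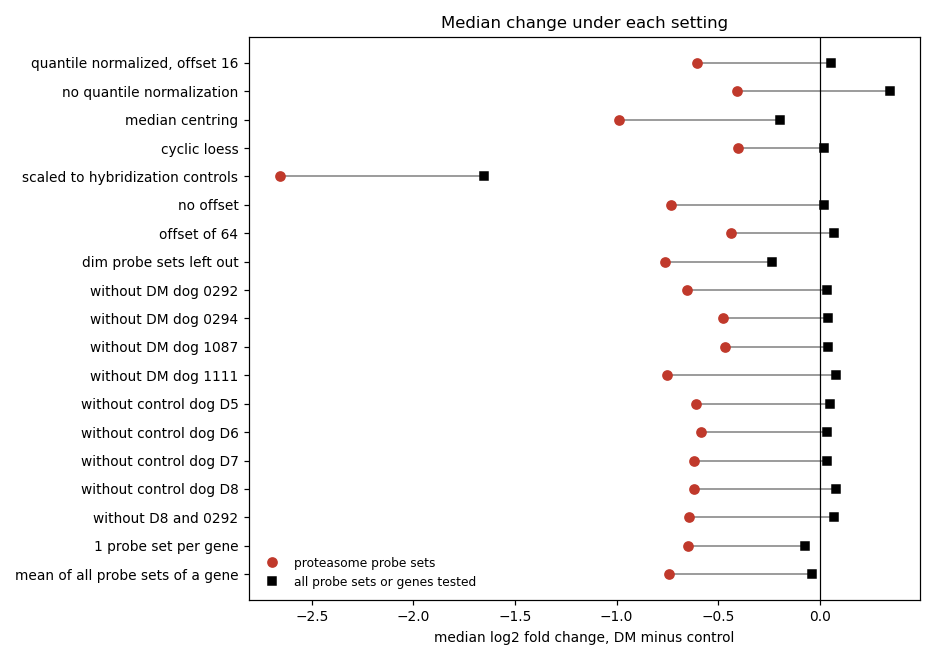
Median log2 difference between DM and control dogs (x axis) of the proteasome probe sets (red) and of all probe sets or genes tested (black) under each alternative. The red points run from -2.66 under scaling by hybridization controls to -0.40 with cyclic loess, each to the left of its black point.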

How the data were processed

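RNA of the left ventricle was measured in 4 DM and 4 control dogs, with 1 Affymetrix Canine Genome Array each. The deposited values are signal intensity on a linear scale, made by the authors with MAS5 and scaled so that the mean after trimming 2% at both ends is close to 500. The RMA normalization and variance stabilization named in the methods were not repeated. Here each array was rescaled to that trimmed mean and quantile normalized over its 23913 probe sets, and log2 was taken after adding 16. The comparison used limma 3.58.1 (lmFit, eBayes) under R 4.3.3, with two-sided p-values adjusted by Benjamini-Hochberg over all 23836 probe sets. The scripts were tested on simulated data. The t-test named in the methods was run here with equal variances, which was chosen for this work. Array measures were compared by exact permutation over 70 assignments of dogs, whose smallest two-sided p is 0.0286. The number of arrays limits the precision.

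Symbols came from the platform annotation, in which 10549 probe sets carry 1 symbol, 138 carry several and 13149 are unnamed here. Of the 38 member symbols, 34 matched RefSeq through their gene identifiers. The members and lists were chosen with earlier results of these data known. Given in full are members with an unadjusted p under 0.05 or without overlap and the extremes of each class. The 2 genes of each list with the smallest p are named with their differences. No batch or scan date is given in the sources used here, so a batch that follows the groups and diabetes cannot be told apart. Alternatives were other normalizations and offsets, leaving out the 40% dimmest probe sets, the methods' t-test, leaving out dogs, and 1 value per gene. Leaving out PSME3IP1 was added after seeing the data. Figures were drawn with matplotlib 3.10.9.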

Additional observations from a re-analysis of the deposited data

Results flagged for a closer look

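In 13 of 120 groups of 4 dogs, 1 dog lay far from the other dogs of its group by Dixon's ratio, the gap to the nearest dog over the range of the group. For independent groups of normal values, chance flags about 1 in 20. The 120 groups come from the same 8 arrays and are not independent, and the share flagged over all probe sets was not computed. D8 lay outside D5, D6 and D7 in 75% of the members and in 72.2% of all probe sets. Control dog D8 was the distant dog in 9. It lay below the other control dogs in PSMB3 (0.922), PSMD2 (0.837), PSMD7 (0.869) and the PSME2 probe sets 1583342_x_at (0.844) and 1585888_x_at (0.989). It lay above them in PSMA6 1596554_at (0.868), PSMC6 (0.864), PSMD9 1602888_at (0.960) and PSMG2 (0.873). DM dog 0292 lay below the other DM dogs in PSMA1 (0.861), PSMC3 1584587_x_at (0.911) and PSME1 (0.950). DM dog 0294 lay above the other DM dogs in PSMD10 1600791_at (0.931).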

How the results depend on the processing

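Against 9 lower and 4 higher members at an unadjusted p under 0.05, median centring gave 18 lower and 2 higher, cyclic loess 5 and 2, scaling by hybridization controls 44 and 0, and no offset 5 and 2. The shares of all probe sets that were lower at that threshold were 13.3%, 8.45%, 45.2% and 7.99% in the same order, so with loess and without offset the members' 8.33% was near the array's own share. The shares that were higher were 4.97%, 8.12%, 0.0629% and 7.85%. The higher count was 2 with dim probe sets left out, with 1 probe set per gene and with the mean of a gene's probe sets. The shares of all probe sets or genes that were higher there were 7.46%, 8.21% and 8.21%. Leaving out 1 dog gave 4 to 14 lower and 1 to 5 higher. The shares of all probe sets then ran from 5.71% to 10.7% lower and from 4.99% to 9.69% higher. The lower count was 5 without D5, 4 without D6, 4 without D7 and 14 without 1111, where 5.83%, 5.71%, 6.14% and 10.7% of all probe sets were lower, so the members' 6.67% without D6 or D7 was near the background. The higher count was 1 without 0294, 1087, D6 or D7 and 2 without D5. In that order, 7.73%, 7.61%, 4.99%, 5.37% and 5.23% of all probe sets were higher. The median difference of -0.60 was -0.99 with median centring and -2.66 under scaling by hybridization controls, which also turned PSMD12 to -0.97 and PSMD14 to -1.28. The median over all probe sets was 0.34 without quantile normalization, -0.19 with median centring and -1.65 under scaling by hybridization controls. Groups did not overlap in 10 members with all dogs, where 5.87% of all probe sets were lower and 4.93% higher without overlap. Without 1 dog the count was 10 to 21, where these shares ran from 6.46% to 11.7% and from 5.85% to 9.25%. It was 16 without 1111 (10.1% lower and 8.5% higher over all probe sets) and 21 without D8 (11.7% and 9.24%). Without D8 and 0292 it was 24, where 15.4% of all probe sets were lower and 14.9% higher without overlap. The cause of these shifts was not tested. Members past an adjusted p of 0.05 from limma numbered 35 under scaling by hybridization controls, and 1 each with an offset of 64 (PSMB5), without 1111 (PSMG3) and without D8 and 0292 (PSMB4), where 1.31%, 1.49% and 2.01% of all probe sets were lower at that threshold, against 1.67% of the members. Of the 13 called members, 4 kept an unadjusted p under 0.05 in every alternative, PSME4 lost it in 1, and the other 8 lost it in 7 to 11. The called probe sets of PSME4 and PSMA6 were among the dim ones left out in 1 alternative, so they had 16 alternatives and the others 17. No paired analysis was possible because DM and control dogs share no replicate numbers.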

Other observations

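A further 4 probe sets name a proteasome gene together with other symbols, so they were left out of the members and cannot be assigned to 1 gene. The probe set shared by LOC607261 and PSMA3 had 7.41, 5.29, 5.33 and 7.44 log2 in DM dogs (0292, 0294, 1087 and 1111), against 8.22, 8.68, 8.58 and 7.27 in control dogs (D5, D6, D7 and D8), a difference of -1.82 (SE 0.70, adjusted p = 0.220 from limma). D8 lay among the DM dogs. The probe set of PSMD4 and PIP5K1A had a difference of -1.39 (SE 0.79), that of PSMA1 and 2 LOC symbols one of -0.97 (SE 0.70), and that of PSMD5 and LOC610717 one of -0.51 (SE 0.56), none at an unadjusted p under 0.05.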
